A study of Mus musculus with 8 samples.

Results

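The kinesin genes of mouse colon fibroblasts were taken as every protein-coding gene whose GENCODE M21 symbol is Kif followed by a number and at most 1 of the letters a to c. The rule found 38 genes among the 55573 genes listed. They were sorted by textbook function into 12 mitotic kinesins, 15 transport kinesins and 11 others. The others held motors of cilia and the Hedgehog pathway, atypical members, and Kif2a, which serves both spindles and neurites. The classes were chosen with earlier results of these data known. After irradiation, 11 of the 11 mitotic kinesins tested were lower, where 4.15% of all genes tested were lower and 2.59% higher. Of 15 transport kinesins and 8 others tested, 0 passed the test in either direction, which at those shares is near the background.

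The fibroblasts came from the C57BL6/J mouse strain and grew in flat culture on plastic in Advanced DMEM F12 with 10% FBS. All cells had received medium conditioned by APTKA, which the labels do not expand, so the comparison group also carries this exposure. Cells of 4 libraries were not irradiated, and cells of 4 libraries received 3 fractions of 2 Gy, with collection 72 h after the first dose. Since the labels do not say whether the libraries are separate animals or cultures, all p-values speak only of how far these samples vary, and that variation may be technical; sex, age and passage were not given in the sources used here.

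Kinesins are motor proteins that hydrolyse ATP to move along microtubules or to shorten them. Mitotic kinesins build the bipolar spindle, position chromosomes and organise the midzone where the cell divides, and most are made mainly in G2 and M phase. Transport kinesins carry organelles, vesicles and RNA through the cytoplasm of cells that divide and cells that do not.

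Total counts ran from 28731227 to 37157216 per library. Of the fibroblast markers, Col1a2 was at 5353 ± 339 and 4539 ± 195 CPM (counts relative to the library's total, with TMM factors; SD, n = 4; non-irradiated first here and below) and Pdgfra at 973 ± 31.5 and 952 ± 20.6 CPM, and 2 of 11, Col1a2 and Vim, were called lower. Over all genes tested, 4.15% were called lower and 2.59% higher at an adjusted p under 0.05. Fibroblast markers summed to between 16240 and 19080 CPM in non-irradiated and between 14800 and 16120 CPM in irradiated libraries. All 5 epithelial markers, all 3 glial markers and 3 of 4 immune markers averaged under 1 CPM in both groups. Endothelial markers summed to between 3.34 and 4.43 CPM and neuronal markers to between 4.33 and 5.66 CPM over all libraries, and the smooth muscle markers Myh11, Des and Cnn1 to between 42.7 and 50.1 CPM in non-irradiated and between 36.4 and 48.9 CPM in irradiated libraries. The labels name no batch, but irradiated libraries I and II held 15129 and 15263 CPM of mitochondrial rRNA, against 4179 to 5934 CPM in the other 6. No pair of libraries of a group agreed within counting noise (chi-square per degree of freedom from 5.12 to 27.6). No file was therefore treated as a second deposit of another library, which does not show that they are separate cultures. Irradiated I with II gave 5.46 and III with IV 5.12, against 15.99 to 27.6 for the pairs across. The irradiated libraries thus split as their mitochondrial rRNA does. Non-irradiated I with III gave 8.6 and II with IV 5.29, against 9.96 to 13.93 for the pairs across. The cause was not tested in either group. The part of the fibroblast markers in the results below was not tested.

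The first question was which motors changed with irradiation. Among all 15259 genes tested, 4.15% were called lower and 2.59% higher at an adjusted p under 0.05. Of the 11 mitotic kinesins tested, 11 were lower, their log2 fold changes (called log2 changes from here on) reaching from -0.81 to -0.42. The median was -0.62, against 0.00 for all genes tested. At an adjusted p under 0.01 the class had 10 of 11 lower, where 1.94% of all genes were lower and 0.917% higher. In 11 of 11 the highest irradiated library lay under the lowest non-irradiated one, a pattern seen in 8.07% of all genes tested. The 15 transport kinesins lay between -0.08 and 0.32, with a median log2 change of 0.04. The twelfth mitotic gene, Kif2b, a depolymerase known mainly from testis, had 0 counts in every library, which allows up to 3 counts in each, and was not tested. Less RNA per cell and fewer cells in division cannot be told apart in bulk samples.

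**Figure D1:**
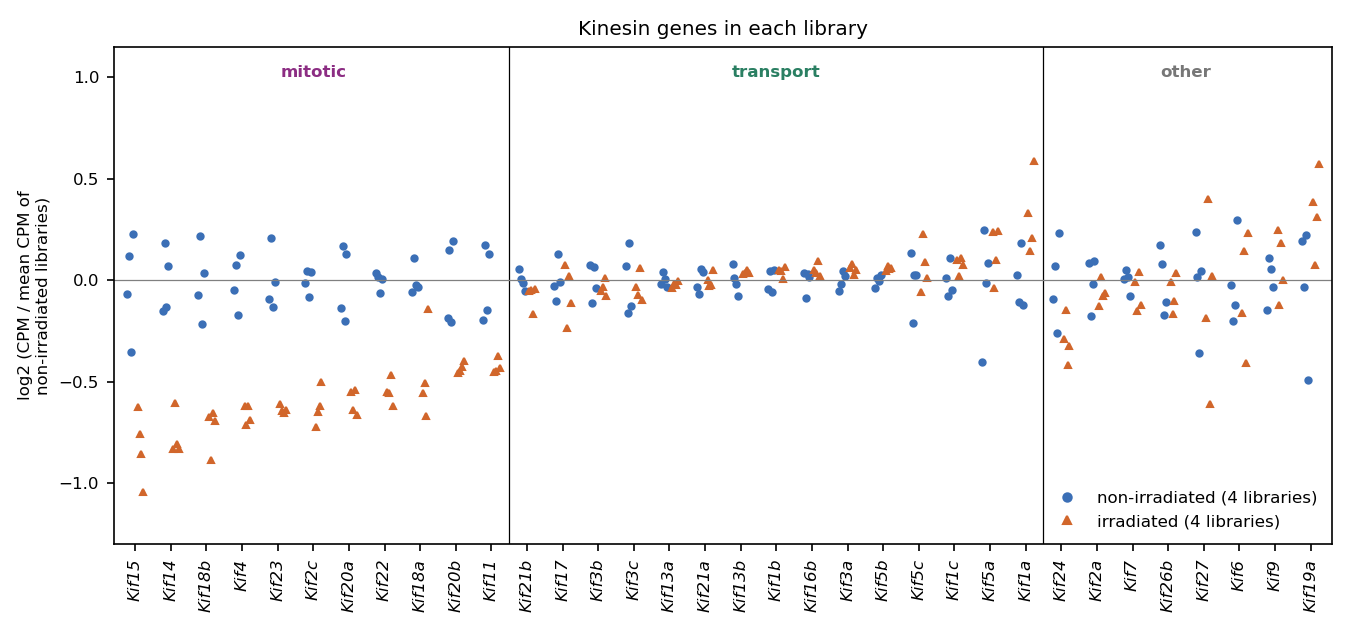
Each point is 1 library, plotted as log2 of its CPM over the mean CPM of the 4 non-irradiated libraries, for the 34 kinesin genes tested (circles non-irradiated, triangles irradiated; classes separated by lines). For all 11 mitotic genes the triangles lie under the circles, whereas among transport genes the groups overlap except for Kif5b.

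Spindle bipolarity depends on Kif11 and Kif15, plus-end motors that push the spindle poles apart. Kif11 (Eg5; ENSMUSG00000012443, chromosome 19, 37376403 to 37421859 of mm10) stood at 34.9, 45.2, 36.2 and 43.7 CPM in non-irradiated libraries I to IV and 29.3, 29.3, 30.9 and 29.7 CPM in irradiated libraries I to IV. It fell by 25.5% (40.03 ± 5.21 to 29.8 ± 0.758 CPM; SD, n = 4; log2 change of -0.42 with an SE of 0.07 and an adjusted p = 0.0037), the smallest fall of the mitotic class by fold. Kif15, which can take over from Kif11 on the spindle, is less abundant: it stood at 12.3, 13.99, 10.1 and 15.1 CPM in non-irradiated libraries I to IV and 8.32, 7.598, 7.103 and 6.23 CPM in irradiated libraries I to IV. It fell by 42.8% (12.8 ± 2.18 to 7.31 ± 0.8805 CPM; log2 change of -0.81 with an SE of 0.12 and an adjusted p = 0.00103; chromosome 9, 122951046 to 123018733), the largest fall of the class by fold. Irradiated libraries were all lower than every non-irradiated one for both genes, a pattern seen in 8.07% of all genes tested. The lowest non-irradiated library was I for Kif11 and III for Kif15.

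Kif4 and Kif22 are chromokinesins, motors that bind chromosome arms and push them towards the metaphase plate. Kif4 also works with Prc1 at the midzone. Kif4 (ENSMUSG00000034311, chromosome X, 100625737 to 100727214) stood at 22.5, 24.5, 20.7 and 25.4 CPM in non-irradiated libraries I to IV and 15.2, 14.2, 15.1 and 14.4 CPM in irradiated libraries I to IV and fell by 36.6% (log2 change of -0.66 with an SE of 0.07 and an adjusted p = 6.51e-05). Kif22 (Kid; chromosome 7, 127027729 to 127042471) stood at 21.9, 21.6, 20.5 and 21.5 CPM in non-irradiated libraries I to IV and 14.6, 14.6, 15.5 and 13.9 CPM in irradiated libraries I to IV, and fell by 31.4% (log2 change of -0.54 with an SE of 0.05 and an adjusted p = 5.79e-05). Of all 11, Kif22 had the smallest SE, and non-irradiated III was the lowest library of its group, still above every irradiated one. Reads of the processed pseudogenes Kif4-ps and Kif22-ps numbered 0 and 1 over all 8 libraries. Of the exon bases of Kif4, 15.1% overlap Pdzd11 on the opposite strand, and because the strand setting of the counting was not given in the sources used here, reads there cannot be told apart.

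Motors that act on microtubule ends also fell. Kif2c (MCAK), a kinesin-13 that strips tubulin from microtubule ends at the centromere and corrects wrong attachments, stood at 15.6, 16.2, 14.9 and 16.2 CPM in non-irradiated libraries I to IV and 9.51, 10.02, 10.2 and 11.1 CPM in irradiated libraries I to IV. It fell by 35.02% (15.7 ± 0.642 to 10.2 ± 0.664 CPM; log2 change of -0.62 with an SE of 0.07 and an adjusted p = 7.82e-05; chromosome 4, 117159639 to 117182639). The kinesin-8 motors Kif18a and Kif18b walk to plus ends and limit microtubule length, Kif18a on the microtubules that hold chromosomes and Kif18b on those that reach the cortex. Kif18b (chromosome 11, 102905529 to 102925124) stood at 29.1, 35.6, 26.3 and 31.4 CPM in non-irradiated libraries I to IV and 19.2, 16.6, 19.4 and 18.9 CPM in irradiated libraries I to IV and fell by 39.3% (log2 change of -0.72 with an SE of 0.08 and an adjusted p = 0.000164). Per length of its exons it was the most abundant mitotic kinesin, at 8.57 ± 1.096 RPKM (CPM divided by exon length in kilobases) in non-irradiated and 5.19 ± 0.3702 RPKM in irradiated libraries. Kif18a (chromosome 2, 109280738 to 109341747) stood at 10.4, 11.7, 10.6 and 10.6 CPM in non-irradiated libraries I to IV and 7.36, 7.63, 6.8 and 9.82 CPM in irradiated libraries I to IV and fell by 27.3% (log2 change of -0.46 with an SE of 0.10 and an adjusted p = 0.0143). Irradiated library IV came within 1 CPM of the lowest non-irradiated library for Kif18a, and the other 3 irradiated libraries were lower. Kif18a was not called when irradiated I and II were both left out (adjusted p = 0.132).

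Cytokinesis motors were the last group. Kif23 (MKLP1) pairs with Racgap1 to form centralspindlin, which bundles midzone microtubules, and it stood at 24.3, 29.98, 23.7 and 25.8 CPM in non-irradiated libraries I to IV and 17.04, 16.6, 16.5 and 16.6 CPM in irradiated libraries I to IV. It fell by 35.6% (25.9 ± 2.82 to 16.7 ± 0.236 CPM; log2 change of -0.64 with an SE of 0.07 and an adjusted p = 0.000106; chromosome 9, 61915905 to 61946774), and its irradiated libraries lay within 1 CPM of one another. Kif20a (MKLP2), which carries the Aurora B complex to the midzone, stood at 24.1, 29.8, 23.1 and 29.02 CPM in non-irradiated libraries I to IV and 18.1, 17.01, 18.2 and 16.7 CPM in irradiated libraries I to IV and fell by 33.8% (log2 change of -0.59 with an SE of 0.08 and an adjusted p = 0.000505; chromosome 18, 34624613 to 34633277). Cdc23 on the opposite strand overlaps 29.3% of the Kif20a exon bases. Kif20b (MPP1), which acts in the completion of cytokinesis, stood at 29.1, 36.6, 28.6 and 37.8 CPM in non-irradiated libraries I to IV and 24.03, 24.3, 24.6 and 25.1 CPM in irradiated libraries I to IV. It fell by 25.9% (log2 change of -0.43 with an SE of 0.08 and an adjusted p = 0.00655; chromosome 19, 34922361 to 34975745), a call that did not hold with irradiated I and II both left out (adjusted p = 0.0612). Kif14, a kinesin-3 that binds citron kinase at the midbody, was the least abundant mitotic kinesin tested, at 6.59, 8.33, 6.69 and 7.69 CPM in non-irradiated libraries I to IV and 4.12, 4.81, 4.18 and 4.12 CPM in irradiated libraries I to IV. It fell by 41.1% (7.32 ± 0.834 to 4.31 ± 0.337 CPM; log2 change of -0.76 with an SE of 0.10 and an adjusted p = 0.000359; chromosome 1, 136466343 to 136531511). For each of these 4 motors all irradiated libraries lay below all non-irradiated ones, as in 8.07% of all genes tested.

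**Figure D2:**
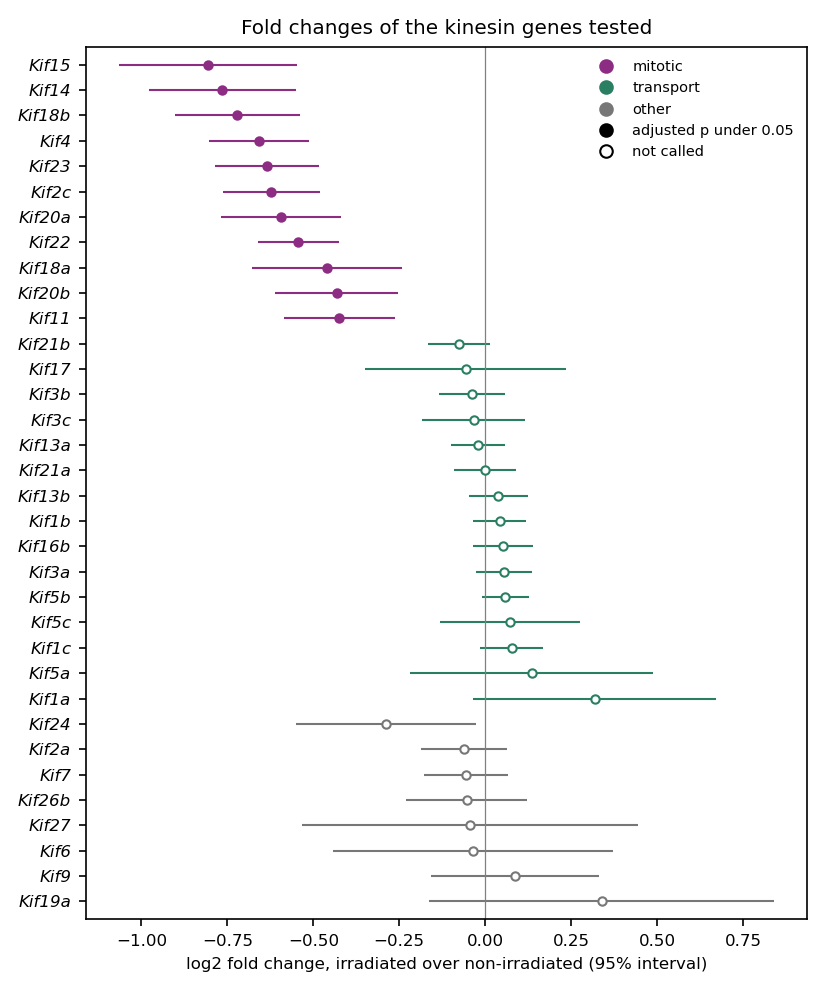
Points are log2 fold changes of irradiated over non-irradiated libraries from edgeR with their 95% intervals, for the 34 kinesin genes tested, coloured by class; filled points passed an adjusted p under 0.05. The 11 mitotic genes lie between -0.81 and -0.42, and the intervals of all 15 transport genes include 0.

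The spread between libraries is given here as a description, with no test. For mitotic kinesins the median coefficient of variation was 11.4% over the 4 non-irradiated and 4.38% over the 4 irradiated libraries, and it was larger without irradiation for 8 of the 11. For the transport class these values were 4.5% and 2.65%, with 12 of 15 larger without irradiation. The same count over all genes was not made, so a smaller spread cannot be tied to either class. Non-irradiated library II was the highest of its group for 7 of 11 mitotic kinesins and III the lowest for 8, whereas no irradiated library was highest for more than 4. Summed per length over all 12 members, mitotic kinesins came to 40.6, 47.8, 38.7 and 45.9 RPKM in non-irradiated libraries I to IV and to 28.9, 27.9, 29.4 and 28.8 RPKM in irradiated libraries I to IV. The sums of the 15 transport kinesins were 226, 221, 233 and 225 RPKM and 232, 230.4, 233 and 231 RPKM in the same order. The ratio of the sums thus went from 0.192 ± 0.02301 to 0.124 ± 0.00223 (SD, n = 4), and it does not depend on the scaling of a library. Irradiated libraries I and II, with the high mitochondrial rRNA, had ratios of 0.1248 and 0.1209, beside 0.1260 and 0.1249 for III and IV.

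**Figure D3:**
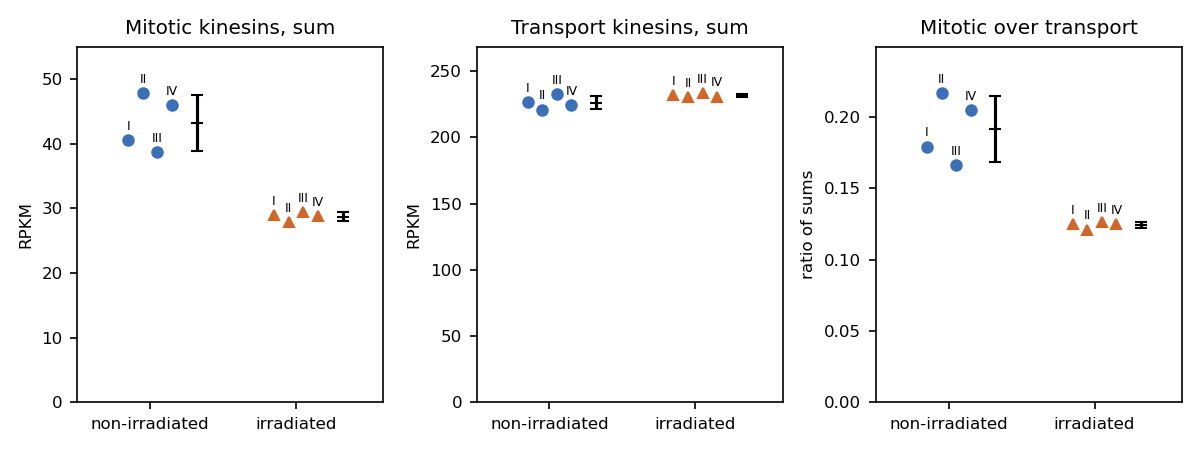
Points are libraries I to IV of each group, and bars are the mean ± SD of 4 libraries: summed RPKM of the 12 mitotic kinesins (left), of the 15 transport kinesins (middle) and the ratio of the sums (right), all axes from 0. The mitotic sum lies between 38.7 and 47.8 RPKM without irradiation and between 27.9 and 29.4 RPKM with it.

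Transport kinesins supplied most of the kinesin RNA of these cells. The most abundant per length was Kif5b, the ubiquitous kinesin-1 heavy chain that moves mitochondria and vesicles, at 66.4 ± 1.302 RPKM without and 69.1 ± 0.517 RPKM with irradiation. In counts it stood at 516, 535, 529 and 539.9 CPM in non-irradiated libraries I to IV and 547, 557, 551 and 552 CPM in irradiated libraries I to IV (log2 change of 0.06 with an SE of 0.03 and an adjusted p = 0.31; chromosome 18, 6201002 to 6242174). It was the sole transport kinesin whose groups did not overlap, 1 of 15 where 6.13% of all genes tested were higher in this way, and it was not called. Its interval spans 0.994-fold to 1.09-fold. The other kinesin-1 chains, Kif5a and Kif5c, are best known from neurons and were low here, at 1.34 ± 0.242 and 1.47 ± 0.134 CPM and 5.85 ± 0.571 and 6.14 ± 0.527 CPM (log2 changes of 0.13 and 0.07; adjusted p = 0.699 and 0.721).

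Among the kinesin-3 motors, which carry vesicle precursors, endosomes and mitochondria, Kif1c and Kif1b were abundant. Kif1c stood at 343, 323, 367 and 329.7 CPM in non-irradiated libraries I to IV and 366, 346, 367 and 359 CPM in irradiated libraries I to IV (log2 change of 0.08 with an SE of 0.04 and an adjusted p = 0.325). The groups overlapped for Kif1c, and it passed (adjusted p = 0.0408) in the fit that left out non-irradiated I and III. Kif1b was at 331 ± 13.2 and 341 ± 5.92 CPM (log2 change of 0.04 with an SE of 0.04 and an adjusted p = 0.552). Kif13a, Kif13b and Kif16b, which move recycling and early endosomes among other cargo, had log2 fold changes of -0.02, 0.04 and 0.05 (adjusted p = 0.788, 0.642 and 0.51). Kif1a, the synaptic vesicle motor of neurons, stood at 1.12, 1.02, 1.25 and 1.01 CPM in non-irradiated libraries I to IV and 1.38, 1.21, 1.27 and 1.65 CPM in irradiated libraries I to IV (log2 change of 0.32 with an SE of 0.16 and an adjusted p = 0.291). It had the largest positive value of the class at the lowest level per length, and its groups overlapped.

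The kinesin-2 motors carry cargo into cilia and along the cytoplasm. Kif3a and Kif3b, which form a complex with Kifap3, were at 50.97 ± 1.54 and 52.95 ± 0.828 CPM and 172 ± 10.5 and 168 ± 4.44 CPM, with log2 fold changes of 0.05 and -0.04 (adjusted p = 0.442 and 0.685). Kif3c was at 83.6 ± 9.55 and 81.6 ± 4.03 CPM (log2 change of -0.03 with an SE of 0.07 and an adjusted p = 0.8289), and 35.3% of its exon bases overlap an antisense gene, 1110002L01Rik. Kif17, the homodimeric member, stayed under 2 CPM (log2 change -0.06, adjusted p = 0.859). The kinesin-4 motors Kif21a and Kif21b, which also pause microtubule growth, were at 44.2 ± 1.78 and 44.2 ± 1.09 CPM and 82.96 ± 2.52 and 78.7 ± 3.23 CPM (log2 changes of 0.00 and -0.08; adjusted p = 0.994 and 0.329). For the 11 transport kinesins with at least 10 CPM without irradiation, the 95% intervals of the fold lay between 0.881 and 1.12, so falls of the size of the mitotic class are outside them. For the 4 rarer ones the intervals were wider, from 0.785 to 1.59 over the whole class.

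The 8 other kinesins tested gave 0 calls in either direction. With 4.15% lower and 2.59% higher over all genes, that is near the background. Kif2a, the kinesin-13 relative of Kif2c that trims microtubules in neurites and at spindle poles, was the most abundant of them per length, at 12.5 ± 1.06 and 11.97 ± 0.4996 RPKM. It stood at 84.7, 70.7, 78.9 and 85.3 CPM in non-irradiated libraries I to IV and 73.2, 80.9, 75.6 and 76.4 CPM in irradiated libraries I to IV (log2 change of -0.06 with an SE of 0.06 and an adjusted p = 0.588), with overlapping groups; Dimt1 on the opposite strand overlaps 19.2% of its exon bases. Kif24, a kinesin-13 of the centriole that restrains cilium assembly, was at 3.75 ± 0.547 and 3.07 ± 0.242 CPM (log2 change of -0.29 with an SE of 0.12 and an adjusted p = 0.187). Kif7, a regulator of Hedgehog signalling in the cilium, was at 23.7 ± 0.867 and 22.7 ± 1.45 CPM (log2 change of -0.06 with an SE of 0.06 and an adjusted p = 0.621). Kif26b, an atypical motor domain protein, was at 13.8 ± 1.54 and 13.3 ± 0.818 CPM (log2 change -0.05, adjusted p = 0.761). Kif9, Kif6, Kif27 and Kif19a, known from motile or primary cilia, stayed under 4 CPM, with log2 fold changes of 0.09, -0.04, -0.04 and 0.34 (adjusted p = 0.719, 0.942, 0.939 and 0.444). Kif28 and Kif26a had 2 counts each over all libraries and Kif12 had 0, and these 3 were not tested.

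Differences between pairs of motors were then tested within each library. The pairs were chosen with earlier results of these data known, so their p-values are no independent support for the calls above. Of 8 pairs, 5 passed a two-sided exact permutation test over the 8 libraries with p = 0.0286, the smallest that 4 against 4 can give (adjusted over the 8 pairs, p = 0.0457). In the kinesin-13 family, Kif2c fell relative to Kif2a: the difference of log2 CPM went from -2.34 ± 0.149 to -2.90 ± 0.0967 (SD, n = 4; exact p = 0.0286), a change of -0.56. In the kinesin-4 family, Kif4 fell relative to Kif21a by 0.65 on the log2 scale, and in the kinesin-3 family Kif14 fell relative to Kif1b by 0.80. In the pair of abundant motors, Kif11 fell relative to Kif5b by 0.47. In these 4 pairs of a mitotic motor with another one the libraries of the groups did not overlap. The mitotic gene of each pair was already lower in every irradiated library, so these 4 results add little to the calls above.

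Within the mitotic class, Kif20b fell less than Kif20a in these libraries. Their log2 difference stood at 0.27, 0.30, 0.31 and 0.38 in non-irradiated libraries I to IV and at 0.41, 0.51, 0.43 and 0.58 in irradiated libraries I to IV, a change of 0.17 (exact permutation p = 0.0286; adjusted p = 0.0457). The groups did not overlap, although the nearest libraries were 0.38 and 0.41. The adjusted value passes only because several other pairs share the smallest p. Cdc23 on the opposite strand also overlaps 29.3% of the Kif20a exon bases. Kif15 minus Kif11 stood at -1.64 ± 0.156 without and -2.03 ± 0.1898 with irradiation, a gap of -0.38 (exact permutation p = 0.0571; adjusted p = 0.0762). Kif18b minus Kif18a stood at 1.49 ± 0.133 and 1.24 ± 0.254, a gap of -0.25 (exact permutation p = 0.171; adjusted p = 0.196). Kif23 minus Kif20a stood at -0.03 ± 0.0969 and -0.07 ± 0.0593, a gap of -0.04 (exact permutation p = 0.486; adjusted p = 0.486). The groups overlapped in all 3, and leaving out 1 library moved the gaps between -0.46 and -0.31, between -0.34 and -0.15 and between -0.09 and -0.02. These 3 pairs were not shown to differ, which does not show that they fell alike.

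**Figure D4:**
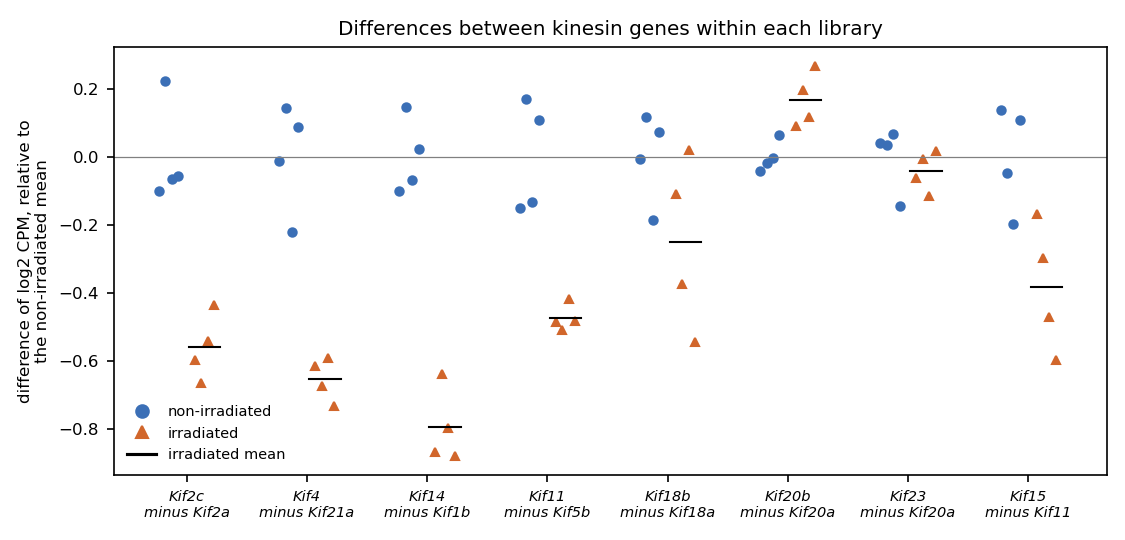
For 8 pairs of kinesin genes, points are the difference of log2 CPM within each library minus its mean over the 4 non-irradiated libraries (circles non-irradiated, triangles irradiated, black lines the irradiated means). The groups are apart for the 4 pairs on the left and for Kif20b minus Kif20a, and overlap for the other 3.

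Promoter sequence was examined because the mitotic members fell together. The 300 bases from 250 before to 50 after the transcript start were read from RefSeq on GRCm38.p6, which shares coordinates with mm10. Such windows were at hand for 28 of the 34 genes tested. There was none for Kif20a, Kif19a and the transport genes Kif5a, Kif5b, Kif13b and Kif21b. Promoters of late cell cycle genes are known for a cell cycle genes homology region (CHR), searched here on both strands as TTTGAA or TTTAAA, and for CCAAT boxes bound by NF-Y. Neither motif contains the other, and they can share an end letter. CHR letters were present in 9 of 10 mitotic promoters and 0 of 11 transport promoters, where 0 of 11 allows a share of up to 28.5% (exact 95% interval), against 24.6% of the 16515 protein-coding genes with such a window. CCAAT letters were present in 6 of 10 mitotic promoters, in 3 of 11 transport promoters and in 38.8% of all. Both were present in 6 of 10, 0 of 11 and 9.95%. Of the 7 windows of other kinesins, 2 held CHR letters and 4 held CCAAT letters. The window of the mitotic gene Kif2b, not tested and so not counted, held CCAAT letters and no CHR letters. With only the 250 bases before the start, CHR letters were left in 5 of 10 mitotic and 0 of 11 transport promoters, against 22.8% of all. The exact 95% interval of the mitotic share, 18.7% to 81.3%, includes the 22.8% of all. A match is a description of letters and not a site in use.

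The 30 bases around the match nearest to the start are shown for the 7 mitotic promoters with a match within 20 bases of it, 5′ to 3′ along the gene, with matched letters in capitals (TTCAAA is TTTGAA and ATTGG is CCAAT on the other strand).
Kif11: tcgtctccatttTTCAAAattgaggcgcgg
Kif15: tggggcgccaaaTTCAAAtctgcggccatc
Kif22: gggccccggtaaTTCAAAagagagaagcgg
Kif23: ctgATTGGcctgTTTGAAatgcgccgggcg
Kif18b: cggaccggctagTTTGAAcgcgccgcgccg
Kif20b: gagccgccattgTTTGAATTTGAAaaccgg
Kif4: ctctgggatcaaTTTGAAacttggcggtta
They lie at chr19:37376351-37376380, plus strand for Kif11, chr9:122951050-122951079, plus strand for Kif15, chr7:127042420-127042449, minus strand for Kif22, chr9:61946780-61946809, minus strand for Kif23, chr11:102925104-102925133, minus strand for Kif18b, chr19:34922353-34922382, plus strand for Kif20b and chrX:100626072-100626101, plus strand for Kif4. Counting the start as position 1 and the base before it as -1, the matches nearest to the start began at -19 in Kif11 and Kif15, at -17 in Kif22, at 3 in Kif23, at 4 in Kif18b, at 8 in Kif20b, which has another at 14, and at 20 in Kif4.

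To show the spacing from a CCAAT box, the 150 bases before the start of Kif11 (chr19:37376232-37376381, plus strand) and Kif22 (chr7:127042421-127042570, minus strand) are set beside those of the transport genes Kif3b (chr2:153291266-153291415, plus strand) and Kif1c (chr11:70700398-70700547, plus strand), again with matched letters in capitals.
Kif11: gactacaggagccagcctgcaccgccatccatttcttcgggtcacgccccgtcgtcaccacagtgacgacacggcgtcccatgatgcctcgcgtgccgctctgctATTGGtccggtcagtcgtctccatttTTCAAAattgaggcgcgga
Kif22: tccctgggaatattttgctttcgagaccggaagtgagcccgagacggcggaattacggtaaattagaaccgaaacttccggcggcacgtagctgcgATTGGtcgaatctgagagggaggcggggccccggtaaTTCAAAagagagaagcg
Kif3b: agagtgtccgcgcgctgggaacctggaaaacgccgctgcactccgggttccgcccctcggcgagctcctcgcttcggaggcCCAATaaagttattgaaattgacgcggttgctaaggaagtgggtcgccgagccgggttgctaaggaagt
Kif1c: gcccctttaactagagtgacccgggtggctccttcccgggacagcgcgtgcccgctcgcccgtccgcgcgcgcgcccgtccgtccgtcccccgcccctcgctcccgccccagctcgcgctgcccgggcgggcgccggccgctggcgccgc
The CCAAT letters shown begin at -45 in Kif11 and at -54 in Kif22, each before its CHR letters. Kif22 has further CCAAT letters at -233 and CHR letters at -215, outside the bases shown. Other mitotic windows differ: Kif23 has CCAAT letters at -7 and CHR letters at 3, and Kif15, Kif20b and Kif2c have no CCAAT letters. Kif3b has CCAAT letters at -69 and no CHR letters in the window, and Kif1c has neither. The letters and the response did not go together in every gene: Kif18a was lower with neither motif in its window, and Kif26b and Kif27 held both and were not called. The windows of the transport gene Kif17 and of Kif27, Kif2c and Kif14 may not be the main promoter. Their RefSeq starts lie 11816, 4175, 3867 and 1505 bases from the GENCODE gene start. Among windows within 500 bases of that start, an addition made after seeing the values, CHR letters were present in 7 of 8 mitotic and 0 of 10 transport promoters, against 22.4% of all. With only the bases before the start, these windows held them in 3 of 8 mitotic (exact 95% interval of the share 8.52% to 75.5%) and 0 of 10 transport promoters, against 20.7% of all.

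**Figure D5:**
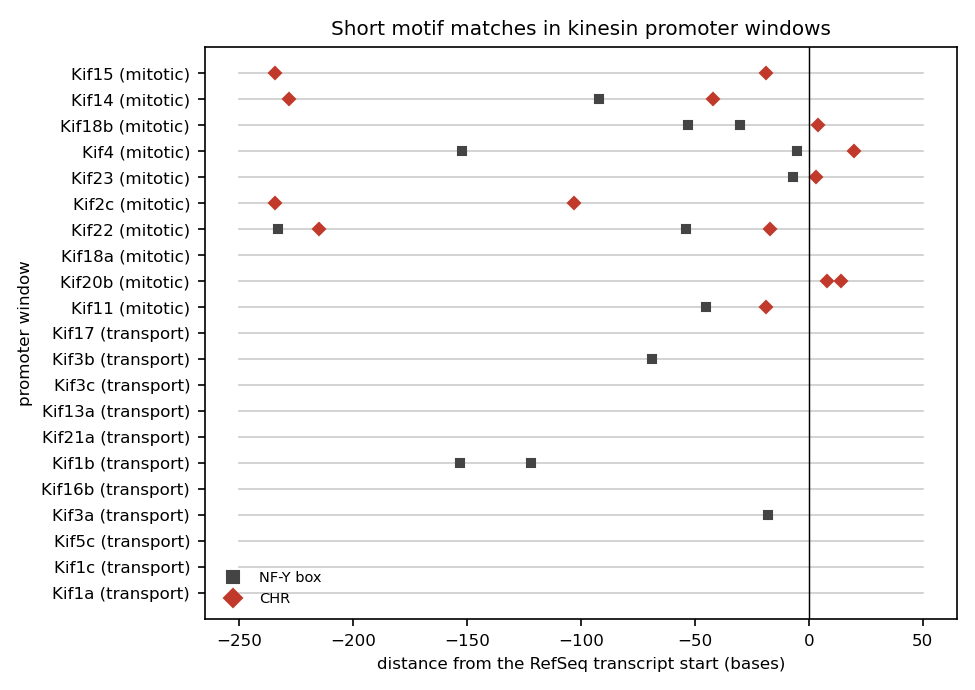
Each line is the window of 1 tested kinesin gene with a RefSeq promoter, and symbols mark where matches to the NF-Y box (CCAAT, squares) and the CHR (TTTGAA or TTTAAA, diamonds) begin, by distance from the transcript start. Diamonds occur in 9 of 10 mitotic windows and in none of the 11 transport windows.

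Kinesins that the symbol rule leaves out, and the proteins that motors work with, were counted with the same fit. These lists too were chosen with earlier results of these data known. Over all genes tested 4.15% were lower and 2.59% higher. Of 5 kinesins named otherwise, 3 were lower and 0 higher. Cenpe, the kinetochore motor that brings chromosomes to the plate, fell from 55.8 ± 6.35 to 32.6 ± 1.59 CPM (log2 change of -0.78 with an SE of 0.07 and an adjusted p = 3.21e-05; SD, n = 4). Kifc1, the minus-end motor that focuses spindle poles, fell from 16.3 ± 0.687 to 13.5 ± 0.872 CPM (adjusted p = 0.0244), and its close copy Kifc5b from 5.44 ± 0.3402 to 4.04 ± 0.0972 CPM (adjusted p = 0.00794), a pair whose reads may have been split between them. Kifc2 and Kifc3 had log2 fold changes of 0.11 and 0.00 and were not called.

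Of 15 mitotic partners, 13 were lower and 0 higher, where 4.15% and 2.59% of all genes were, with a median log2 change of -0.60. Prc1, the midzone bundler that recruits Kif4, fell from 50.2 ± 3.26 to 32.3 ± 0.781 CPM (log2 change of -0.64 with an SE of 0.05 and an adjusted p = 1.15e-05), and Tacc3, a spindle protein that acts with clathrin and Ckap5, from 32.4 ± 3.21 to 19.6 ± 0.847 CPM (log2 change of -0.73 with an SE of 0.07 and an adjusted p = 3.68e-05). Ckap5 and Numa1, abundant proteins that also act outside mitosis, were not called (365 ± 12.2 and 338 ± 2.34 CPM, adjusted p = 0.0629, and 319 ± 15.5 and 291 ± 7.78 CPM, adjusted p = 0.0628). Their log2 changes were -0.11 and -0.13. For both, all irradiated libraries lay below all non-irradiated ones, as in 8.07% of all genes tested. Of 16 transport partners tested (kinesin light chains, Kifap3 and cargo adaptors), 0 were called in either direction, with a median log2 change of 0.03; at shares of 4.15% lower and 2.59% higher over all genes, a list of this size with no call is near the background. The closest was Arl8b, which links lysosomes to kinesin-1 (268 ± 7.14 and 290 ± 5.02 CPM, adjusted p = 0.0617). Next came Kidins220, a membrane scaffold that binds kinesin-1 (474 ± 6.06 and 508 ± 7.98 CPM, adjusted p = 0.0757). Of 17 genes tested of dynein, the minus-end motor, and its regulators, 1 was lower and 0 higher, a share near the 4.15% and 2.59% of all genes. The gene was Nde1, a dynein regulator that is also needed at the mitotic spindle, which fell from 56.2 ± 0.896 to 46.8 ± 1.72 CPM (log2 change of -0.26 with an SE of 0.04 and an adjusted p = 0.000942). The heavy chain Dync1h1 was at 1646 ± 40.97 and 1708 ± 23.3 CPM (log2 change 0.05, adjusted p = 0.407) and the light intermediate chain Dync1li1 at 154 ± 4.47 and 166 ± 5.12 CPM (log2 change 0.11, adjusted p = 0.112).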

How the data were processed

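Polyadenylated RNA, by its label, was extracted with a Qiagen RNeasy mini kit for 8 libraries. The authors deposited raw read counts, whole numbers for each Ensembl gene, in 1 file per library. The submitters' processing notes list STAR 2.5.2a, featureCounts 1.5.0-p1, bcl2fastq 2.20.0.422 and mm10. Annotation release, strandedness and treatment of multi-mapping reads: not given in the sources used here. Reads of near copies or overlapping genes can therefore be lost or misplaced.

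Symbols, coordinates and exon lengths came from GENCODE M21 (GRCm38, the coordinates of mm10), which named 55480 of 55573 identifiers; the 93 others held 0.0004% of counts. The main test was edgeR's quasi-likelihood test (edgeR 4.0.16, R 4.3.3) with TMM factors, filterByExpr (minimum count 10, total 15) and group as the sole term over all 8 libraries. It kept 15259 genes, 34 of them kinesins, and Benjamini-Hochberg adjustment ran over all of these. Log2 changes are irradiated over non-irradiated; SE and 95% intervals were derived from the F statistic. Mitochondrial rRNA used total counts. Pair differences used log2 CPM (prior count 2) and exact permutation tests (scipy 1.17.1). The limit for a count of 0 covers counting error only, whereas the fold change intervals include the spread between libraries.

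Members, classes, pairs and lists were chosen with earlier results of these data known. Every kinesin tested is named, with values per library for called members and the most abundant member of each class per length; Kif1c and Kif1a were added after their values were seen. Of each partner list, the 2 genes with the smallest adjusted p and the most abundant one are named; Kifc1, Kifc2, Kifc3 and Numa1 were added after their values were seen. Replicate numerals came from the titles. Alternatives were RLE or upper-quartile factors, DESeq2 1.42.0, voom (limma 3.58.1), other filters, a threshold of 0.01, a replicate block, leaving libraries out, other prior counts and other promoter windows. The scripts were tested on simulated data.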

Additional observations from a re-analysis of the deposited data

Results flagged for a closer look

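Of 110 sets of 4 libraries examined, 6 held 1 library whose gap to the nearest other exceeded Dixon's 95% critical share of the range, where chance gives about 1 in 20. Kif14 was at 4.81 CPM in irradiated II against 4.12 to 4.18 CPM in the other 3 irradiated libraries. Kif16b was at 60.2 CPM in non-irradiated II against 64.8 to 65.7 CPM. Kif21b was at 73.9 CPM in irradiated III against 79.96 to 80.6 CPM. Ckap5 was at 341 CPM in irradiated IV against 336 to 337 CPM. The log2 difference of Kif2c and Kif2a was -2.12 in non-irradiated II against -2.44 to -2.40 in the others of its group. That of Kif23 and Kif20a was -0.17 in non-irradiated IV against 0.01 to 0.04. Leaving out the library concerned changed no call of Kif14, Kif16b or Kif21b.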

How the results depend on the processing

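All 11 mitotic kinesins tested stayed lower under 18 alternative settings (198 results of a member, 0 reversed), and 195 kept the call. The threshold of 0.01 rereads the main fit, so it could reverse nothing. The 3 lost calls were Kif18a at a threshold of 0.01 (adjusted p = 0.0143) and, with irradiated I and II both left out, Kif18a (0.132) and Kif20b (0.0612). Without any 1 library 11 stayed lower, the highest adjusted p being 0.0493 (Kif18a). Transport kinesins gave 0 calls except 1 higher (Kif1c, 0.14, adjusted p = 0.0408) with non-irradiated I and III both left out. Non-irradiated I and III had the lowest mitotic sums of their group (40.6 and 38.7 RPKM). Leaving out non-irradiated II and IV together was not run. Over all genes, 648 were higher with no filter, 296 were lower and 140 higher at 0.01, and 295 were lower with irradiated I and II both left out. Without 1 library, 415 to 611 were lower and 221 to 402 higher, the lowest without irradiated IV. The cause was not tested, other than that 0.01 is stricter and fewer libraries were used. CHR letters were in 50% of mitotic windows upstream of the start. Deviations of same-numbered libraries I to IV correlated at 0.025, -0.033, 0.275 and 0.147, over 0.1 in 2 of the 4, so a pairing by numeral was not shown. With the replicate block 802 genes were lower and 550 higher, and 11 mitotic and 0 transport kinesins were called.

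Uncalled genes near 0 changed sign. The log2 change of Kif21a was 0.0008 with RLE, 0.0038 with upper-quartile factors, 0.0004 with DESeq2, 0.0018 with no filter, 0.0036 with at least 1 CPM in 4 libraries and 0.0116 with irradiated I and II both left out. With non-irradiated I and III both left out it was 0.0117, Kif3b 0.0374, Kif1b -0.0057, Kif3c 0.11, Kif17 0.0022 and Kif5a -0.029. Without 1 library the values ran from -0.02 to 0.0184 for Kif21a, from -0.1089 to 0.0064 for Kif26b, from -0.1266 to 0.0773 for Kif6, from -0.2343 to 0.108 for Kif27 and from -0.081 to 0.0344 for Kif3c. Depth limits the members under 2 CPM, whose intervals are the widest.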
